A study of Mus musculus with 22 samples.

Results

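Lungs of mice given 54 µg of the multi-walled carbon nanotube (MWCNT) Mitsui7 were compared with lungs of mice given 18 µg, the step between the lower 2 of 3 doses. The comparison takes every array whose title names these doses, which are 5 lungs at 54 µg and 6 lungs at 18 µg, or 11 of the 22 lungs in the series. The other lungs, 5 vehicle controls and 6 at 162 µg, are not part of the contrast, although they entered the same model and are quoted as reference values. All groups were female C57BL/6 mice, 8 weeks old when the experiment began, with no genetic modification named. Each mouse received a single 40 µl intratracheal instillation under Hypnorm and Dormicum anaesthesia. The vehicle of the controls was 0.9% NaCl containing 10% lavage fluid, and all mice were killed 24 hours later under the same anaesthesia. Total RNA of the right lung was labelled with Cy5 and hybridised on 2-colour Agilent arrays against Cy3-labelled Universal Mouse Reference RNA, a pool from 11 mouse cell lines.

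A level below is the log2 ratio of lung to reference signal of a gene's probe after loess normalization within the array, so that 0 means equal to the reference. Each difference is 54 µg minus 18 µg on this log2 scale, with the slide taken into account. Levels of different genes come from different probes and were not compared with each other. According to the study, the samples of a dose group are separate mice. The p-values rest on the spread between mice within groups, pooled over all 22 lungs of the model.

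Instilled fibres reach the airways and alveoli, where epithelial cells and macrophages release chemokines and acute phase proteins. Metallothioneins are small cysteine-rich proteins that bind zinc and copper, and their genes respond to metals, to oxidants and to glucocorticoids. Glucocorticoids are adrenal hormones of the stress response. They act through a nuclear receptor that binds DNA, and they are known to restrain inflammation and to lower lymphocyte numbers.

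Promoters of 6 members of the gene groups below are shown, each from 250 bases before to 50 bases after the RefSeq start of the gene in build GRCm38.p6. They were chosen for motifs that belong to the regulators of these groups. Mt2 lies at chr8:94172368-94172667 on the + strand and Mt1 at chr8:94178839-94179138 on the + strand, and capitals mark the metal response element core (TGCACNC or TGCGCNC, on either strand). Sgk1 lies at chr10:21993640-21993939 on the + strand, with a full glucocorticoid response element in capitals. In Ccnb2, at chr9:70421505-70421804 on the - strand, and Cdc20, at chr4:118437294-118437593 on the - strand, capitals mark the cell cycle homology region (TTTGAA). H2-Aa lies at chr17:34287774-34288073 on the - strand, with the inverted CCAAT box (ATTGG) in capitals.
Mt2: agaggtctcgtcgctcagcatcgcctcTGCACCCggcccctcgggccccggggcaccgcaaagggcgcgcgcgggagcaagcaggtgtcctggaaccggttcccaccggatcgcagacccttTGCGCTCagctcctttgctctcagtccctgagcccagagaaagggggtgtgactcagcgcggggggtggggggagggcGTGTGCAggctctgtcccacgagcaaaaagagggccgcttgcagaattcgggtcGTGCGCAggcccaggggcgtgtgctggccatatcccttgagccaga
Mt1: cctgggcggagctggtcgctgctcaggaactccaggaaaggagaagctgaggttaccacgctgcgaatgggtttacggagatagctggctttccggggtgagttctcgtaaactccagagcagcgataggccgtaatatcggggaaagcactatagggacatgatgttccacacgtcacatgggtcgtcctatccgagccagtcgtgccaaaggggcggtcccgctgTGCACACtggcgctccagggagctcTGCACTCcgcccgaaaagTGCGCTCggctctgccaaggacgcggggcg
Sgk1: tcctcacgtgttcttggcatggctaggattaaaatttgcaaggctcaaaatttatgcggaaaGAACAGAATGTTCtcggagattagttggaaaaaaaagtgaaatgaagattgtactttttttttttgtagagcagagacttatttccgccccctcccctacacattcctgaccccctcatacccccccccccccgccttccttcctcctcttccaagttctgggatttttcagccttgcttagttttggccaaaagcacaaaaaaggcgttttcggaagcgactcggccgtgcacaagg
Ccnb2: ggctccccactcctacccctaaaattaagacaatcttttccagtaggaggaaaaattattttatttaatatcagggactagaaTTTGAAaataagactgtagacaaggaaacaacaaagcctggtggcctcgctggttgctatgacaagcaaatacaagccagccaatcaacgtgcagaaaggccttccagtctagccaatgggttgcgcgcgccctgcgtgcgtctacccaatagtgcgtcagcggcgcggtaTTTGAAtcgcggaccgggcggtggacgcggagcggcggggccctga
Cdc20: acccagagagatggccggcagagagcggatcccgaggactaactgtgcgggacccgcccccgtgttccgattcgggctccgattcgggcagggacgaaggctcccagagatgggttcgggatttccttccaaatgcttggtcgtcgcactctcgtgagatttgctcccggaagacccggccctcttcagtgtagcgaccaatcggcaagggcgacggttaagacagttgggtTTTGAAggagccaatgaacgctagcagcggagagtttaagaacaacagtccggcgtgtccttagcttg
H2-Aa: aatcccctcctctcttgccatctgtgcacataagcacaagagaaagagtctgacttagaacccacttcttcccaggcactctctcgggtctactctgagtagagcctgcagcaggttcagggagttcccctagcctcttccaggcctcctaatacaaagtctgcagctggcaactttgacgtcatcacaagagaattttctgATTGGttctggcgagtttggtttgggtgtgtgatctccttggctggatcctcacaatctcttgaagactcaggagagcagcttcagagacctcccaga

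A gene was counted for a motif if any of its promoters held it, among 27025 genes with 32851 promoters. The metal response element core occurred in 8 of the 15 metallothionein and zinc transporter genes that matched RefSeq (53.3%), against 28.2% of all genes. Of 9 glucocorticoid response genes with a promoter, only Sgk1 held the full element, which is present in 0.537% of all genes. TTTGAA was found in 14 of 20 mitosis and spindle genes (70%), against 20.2% of all. The inverted CCAAT box was present in all 7 MHC class II genes and in 17 of 20 mitosis and spindle genes, against 41.1% of all. The octamer ATGCAAAT occurred in none of 6 B cell genes, against 1.97% of all. The E-box CACGTG was found in 4 of 14 circadian clock genes, against 8.09% of all. Each motif was searched on both strands. These are matches of letters within 300 bases, not measured binding.

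Lung identity was clear on all arrays. Surfactant protein C (Sftpc), the secretoglobin Scgb1a1 of club cells, the type I cell receptor Ager and the endothelial claudin Cldn5 were well above background on 22 of 22 arrays, with Sftpc between 5.92 and 9.48 and Scgb1a1 between 6.31 and 9.21 over all lungs. Between 56.8% and 77.9% of probes exceeded background in the 18 µg lungs and between 58.1% and 78.9% in the 54 µg lungs. The median Cy5 signal was 1.24 to 2.11 times local background at 18 µg and 1.37 to 2.07 times at 54 µg. Across expressed probes, the SD of the log2 ratios was 0.98 to 1.14 on the 18 µg arrays, with a median of 1.01. On the 54 µg arrays it was 1.06 to 1.19, with a median of 1.09. What the narrower median spread at 18 µg adds to differences of genes far from the reference level was not tested. No 2 arrays were close to identical, with a highest correlation of 0.961 over expressed probes. Both doses were hybridised together on 4 of the 7 slides, which allows a difference within a slide to be given for 4 pairs of lungs. The uncoupling protein Ucp1, a marker of brown fat, reached 4.72 in replicate 3 of the 18 µg group and 5.64 in replicate 5 of the 162 µg group, against -0.16 to 0.83 in the other 20 lungs.

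Few probes separated the doses. Of 35514 expressed probes, 8 passed an adjusted p of 0.05 with a change of at least 1.5-fold in limma, which is 0.0225% of those tested. Of these 6 rose and 2 fell between 18 and 54 µg. The count was 0 when replicate 3 of the controls, replicate 4 or 5 of the 18 µg group or replicate 4 of the 54 µg group was left out, and 87 without replicate 1 of the 54 µg group. It was also 0 without a slide term, with arrays only centred on their median, or in a fit of the 11 arrays alone, and 57 by the Fs test with shuffled residuals. At an adjusted p of at most 0.1, 39 probes were higher and 25 lower. The unadjusted threshold of 0.05 with at least 1.5-fold was passed by 633 probes that were higher and 300 that were lower at 54 µg. Arrays only centred on their median gave 1674 higher and 36 lower, arrays without normalization 7922 and 3, and the Cy5 channel alone 557 and 519. Among the 15686 expressed named genes, 401 were higher (2.56%) and 179 were lower (1.14%) by that rule, and these shares are the background for the gene groups below. The groups were chosen with earlier results of these data known, so a count beside these shares is a description and no test. The median difference over all named genes was 0.01. With slide effects taken out, the lungs of the doses did not overlap for 1.92% of probes in the higher and 2.57% in the lower direction.

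**Figure D1:**
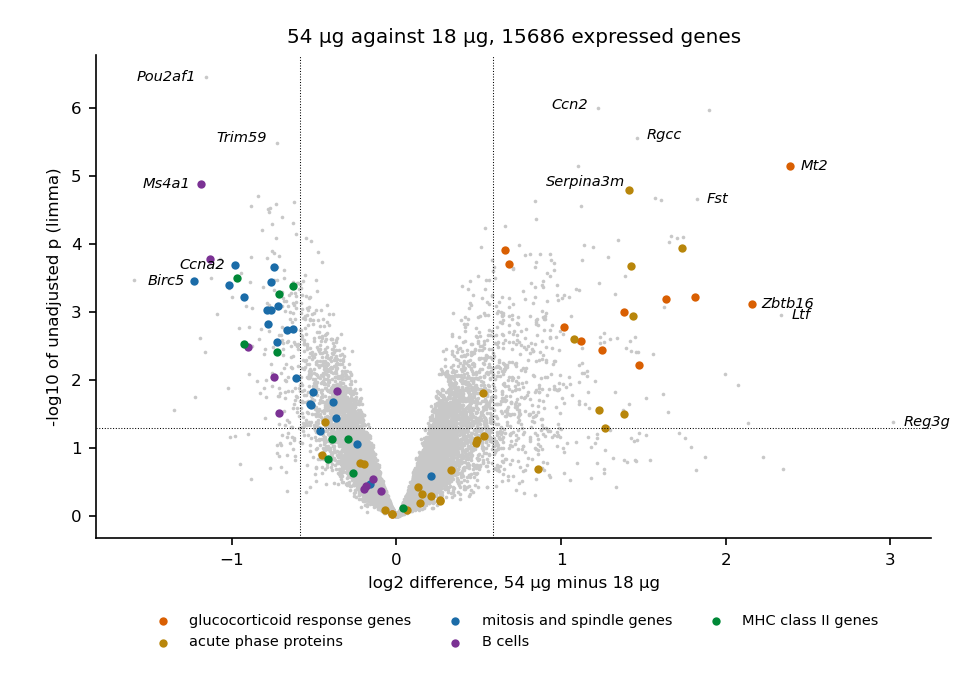
Log2 difference between 54 µg and 18 µg (x axis) against -log10 of the unadjusted limma p (y axis) for 15686 expressed genes, 1 grey point a gene. Members of 5 lists are in colour, and dotted lines mark the unadjusted threshold and 1.5-fold. Glucocorticoid response genes lie to the right and mitosis, B cell and MHC class II genes to the left, and Mt2 has a difference of 2.39.

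Metallothionein 2 (Mt2) had the largest change among the called probes. Its levels were -0.86, 0.25, 0.95, 0.69 and 1.98 in the 54 µg lungs, and ran from -2.53 through a median of -1.83 to -0.82 in the 18 µg lungs. Only replicate 1 of the 54 µg group lay inside the 18 µg range, just below its top. Mt2 rose by 2.39 (standard error 0.38), or 5.25-fold, with an adjusted p of 0.0440 in limma. This call was lost in 24 of 38 other settings, with adjusted p-values of 0.0608 with normexp, 0.161 with the deposited ratios, 0.133 without a slide term and 0.113, 0.210 and 0.0638 without replicate 3, 4 or 5 of the 54 µg group. Within the 4 shared slides it was higher by 0.96, 1.76, 4.35 and 2.54. Controls lay lower, between -3.57 and -2.67, and the 162 µg lungs higher, between 1.25 and 2.26.

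Connective tissue growth factor (Ccn2), a secreted matricellular protein, was at 1.46, 1.40, 1.45, 1.64 and 0.95 at 54 µg, against -0.39, 0.03 and 1.13 as the lowest, median and highest at 18 µg. Replicate 5 was the only 54 µg lung within the 18 µg range. The rise was 1.23 (standard error 0.17), or 2.34-fold, with an adjusted p of 0.0194, and the slides gave 0.58, 1.69, 0.81 and 1.73. The controls, from 0.30 to 1.56, overlapped both doses.

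The regulator of cell cycle Rgcc stood at 4.03, 5.11, 5.78, 5.45 and 4.58 in the 54 µg lungs, and at 3.09, 3.64 and 3.78 in the lowest, median and highest 18 µg lung. All 54 µg lungs were above all 18 µg lungs. Rgcc rose by 1.46 (standard error 0.21), or 2.75-fold, with an adjusted p of 0.0364. Slide by slide the difference was 0.57, 2.16, 0.80 and 1.79.

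Of the other called probes that rose, the predicted gene Gm28856 rose by 1.10 (standard error 0.17, adjusted p = 0.0440), with every 54 µg lung, from 1.36 to 2.53, above the highest 18 µg lung at 1.12. A probe that only the study's tables assign to the lipid kinase gene Pip5k1a rose by 1.90 (standard error 0.26, adjusted p = 0.0194). The remaining expressed Pip5k1a probes differed by 0.07 and -0.15, so its gene assignment is uncertain. For Tmtc1, which encodes a mannosyltransferase of the endoplasmic reticulum, a probe rose by 0.84 (standard error 0.13, adjusted p = 0.0440) while the brighter probe differed by 0.72 with an adjusted p of 0.358.

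Pou2af1, the B cell coactivator of octamer-binding factors, was called in the downward direction. Its levels were -2.34, -3.07, -3.34, -3.28 and -3.04 at 54 µg and ranged from -2.69 through -2.11 to -0.87 at 18 µg. All 54 µg lungs except replicate 1 were below every 18 µg lung. Pou2af1 fell by 1.16 (standard error 0.15), a 2.23-fold change, with an adjusted p of 0.0193, and the slide values were -1.47, -1.23, -1.12 and -1.18. Controls lay between -3.10 and -2.32, close to the 54 µg lungs. In whole lung RNA, fewer cells of a type and less RNA per cell cannot be told apart.

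Trim59, a gene of the tripartite motif family of ubiquitin ligases, fell by 0.73 (standard error 0.11), or 1.65-fold, with an adjusted p of 0.0364. Its 54 µg levels of -3.40, -3.73, -3.80, -3.69 and -3.76 were below the 18 µg range of -3.62 to -2.67 in all lungs but replicate 1. Within slides the values were -0.74, -0.91, -0.65 and -0.77.

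**Figure D2:**
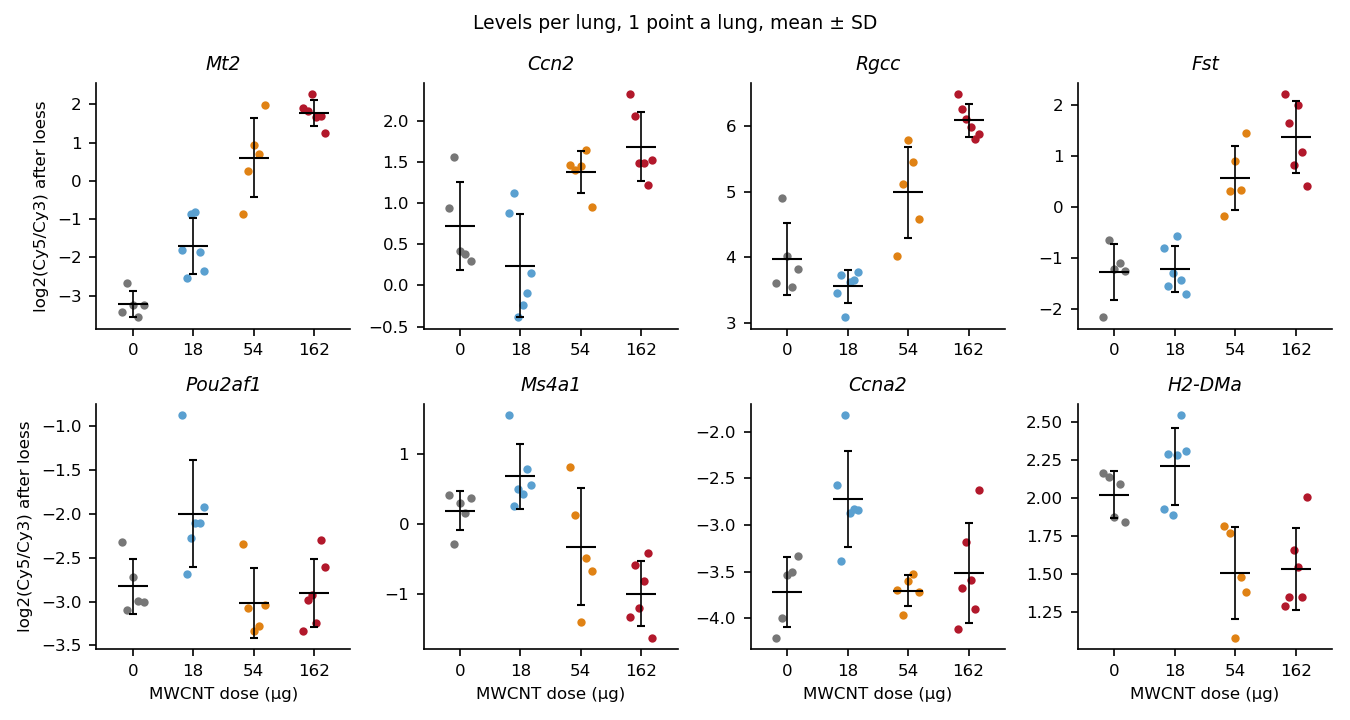
Log2 ratio of lung to reference after loess (y axis) against MWCNT dose in µg (x axis) for 8 genes, 1 point a lung, with mean and SD as bars. Mt2, Rgcc and Fst step up between 18 and 54 µg, and Ccna2 is lower in all 54 µg lungs than in all 18 µg lungs.

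The 24 named genes with the smallest p, 12 in each direction, had adjusted p-values from 0.0193 to 0.0670 in limma. By selection all had passed 1.5-fold. All lay in the same direction on the 4 shared slides, whose lungs also entered the p-values that picked the genes, so this is no independent evidence. Beyond the called genes, those that were higher at an adjusted p of 0.0541 included follistatin (Fst), a binding protein of activins, with 3.55-fold and levels of -0.18 to 1.45 against -1.71 to -0.56. The chloride channel regulator Clca3a2 was higher by 3.05-fold, the serine protease inhibitor genes Serpina3c and Serpina3m by 2.97-fold and 2.66-fold, the splicing factor gene Rbfox3 by 2.24-fold, and the metalloprotease inhibitor Timp3 by 2.18-fold. Ifrd1, a transcriptional coregulator, was higher by 1.80-fold. For Fst, Clca3a2 and Ifrd1 the lungs of both doses did not overlap. Serpina3c and Serpina3m belong to a cluster of closely related genes, and signal shared among them was not tested.

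Beyond the called genes, those that were lower at 54 µg had adjusted p-values of 0.0541 to 0.0670. The B cell surface protein Ms4a1 (CD20) was at 0.81, 0.13, -1.41, -0.49 and -0.68 against 0.25, 0.53 and 1.57 for the lowest, median and highest 18 µg lung. Its difference was -1.19 (standard error 0.20). The CD45-associated protein Ptprcap (-0.78), the T and NK cell adhesion molecule Cd2 (-0.77) and the haematopoietic kinase Map4k1 (-0.69) were in the same set. Ptprcap and Cd2 were below every 18 µg lung in all 5 lungs. The set also held complement component C5 (Hc, -0.84), the tubulin Tubb2b (-0.88), the cell cycle repressor E2f8 (-0.77, with no value in replicate 2 of the 54 µg group), the LIM protein Crip1 (-0.73), Phf11a (-0.62) and Tmem229b (-0.63).

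Glucocorticoid response genes were higher at 54 µg than at 18 µg almost throughout. Of 12 expressed members, 11 passed the unadjusted threshold in the upward direction and none in the downward, against 2.56% of all named genes. The median difference was 1.32 against 0.01. Since members were chosen with earlier results of these data known, this count is no independent evidence. Fewer passed when the model also held a term for the replicate number, as given in the closing section. Mt2 is the only member that also passed the adjusted threshold. The exception was the siderophore-binding lipocalin Lcn2, with -0.03. Zbtb16, a zinc finger repressor induced by the receptor, was at 1.57, 4.64, 5.63, 4.76 and 4.40 at 54 µg, against a lowest, median and highest level of 0.91, 1.84 and 2.47 at 18 µg. Replicate 1 was the single lung inside the 18 µg range. The Zbtb16 difference was 2.16 (standard error 0.53), with an adjusted p of 0.158 in limma.

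Hif3a, an inhibitory subunit of the hypoxia-inducible factors, was at -0.31, 1.45, 3.36, 1.24 and 1.71 at 54 µg and ran from -0.46 to 0.32 at 18 µg, a difference of 1.63. The receptor co-chaperone Fkbp5 was at -1.18, -0.16, 1.53, -0.21 and 0.33 against -1.72 to -0.88, a difference of 1.38. In both genes replicate 1 alone overlapped the 18 µg lungs. Tsc22d3 (GILZ), a mediator of the anti-inflammatory response, was at 2.62, 2.83, 3.49, 3.18 and 1.89 against 0.61 to 2.05, a difference of 1.25. The lipase inhibitor Angptl4 had levels of 1.70, 2.05, 3.06, 2.55 and 2.92, all above the 18 µg range of -0.38 to 1.41, and differed by 1.82. Pyruvate dehydrogenase kinase Pdk4 (1.47), the EGF receptor feedback inhibitor Errfi1 (1.12), the cell cycle inhibitor Cdkn1c (1.01), the kinase Sgk1 (0.68) and the Krüppel-like factor Klf9 (0.66) completed the 11. Their adjusted p-values lay above 0.05, with the smallest at 0.0959 for Klf9.

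Averaged over the glucocorticoid response genes and centred on all lungs, the level was -0.62, 0.24, 1.05, 0.57 and 0.50 in the 54 µg lungs and -1.13 to -0.64 in the 18 µg lungs. Controls spread widely, from -1.29 to 0.36, so that some lay below and some above the 54 µg lung with the lowest level. The median difference within slides was 0.10, 1.84, 1.21 and 1.30, smallest on the slide that carries replicate 1 of both groups. Against controls, the members' median was -0.50, 0.77 and 1.43 at 18, 54 and 162 µg. These comparisons share the control lungs, and the first 2 also share the lungs compared here. Per1, a clock gene that is also induced by glucocorticoids, belongs to another list. It was at 0.31, 1.54, 1.73 and 1.20 in the 54 µg lungs with a value, against -0.34 to 0.49 at 18 µg. Per1 differed by 1.47 (adjusted p = 0.268 in limma), and other genes outside the list that glucocorticoids induce were not gathered. Among the 16 circadian clock genes, Per1, Per2 (0.85) and the transcription factor Tef (0.77) passed the unadjusted threshold upwards and the repressor Nr1d1 (-0.71) downwards, with a median of 0.10. The core activators Arntl (-0.08) and Clock (0.15) were close to 0.

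**Figure D3:**
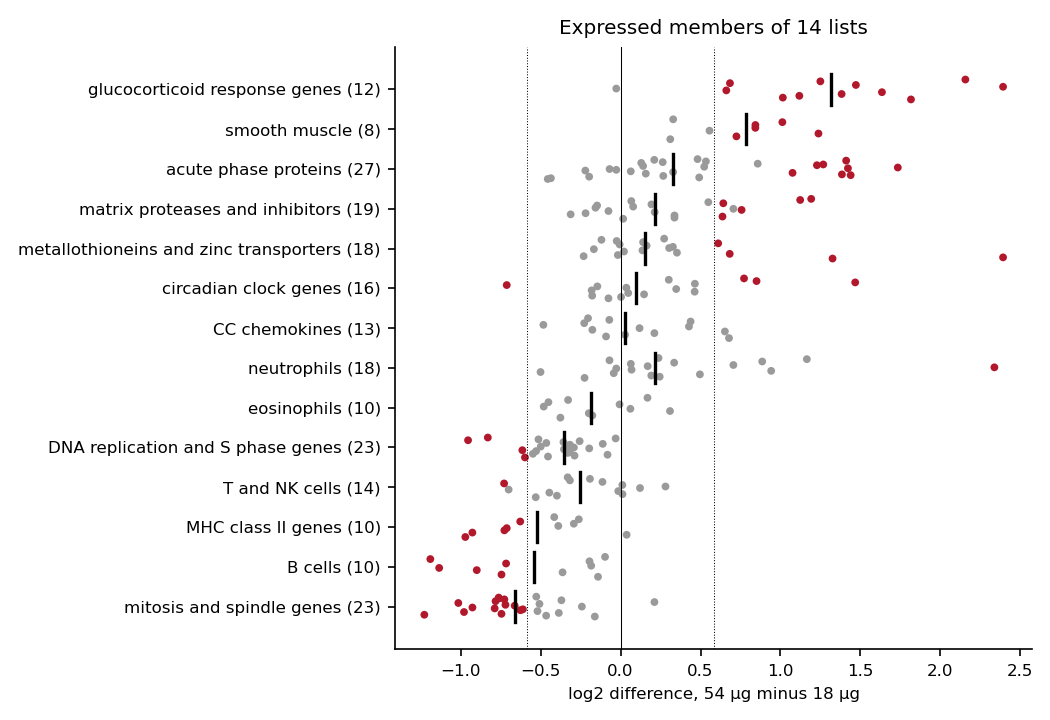
Log2 difference between 54 µg and 18 µg (x axis) for the expressed members of 14 lists, 1 point a gene, with the number of members in brackets. Red points passed an unadjusted p of 0.05 and 1.5-fold, and black bars are medians, which run from 1.32 in the glucocorticoid response genes to -0.66 in the mitosis and spindle genes.

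Of 18 expressed metallothionein and zinc transporter genes, 4 passed the unadjusted threshold upwards and none downwards, with a median difference of 0.15, and without replicate 5 of the 54 µg group 2 passed. Besides Mt2 these were Mt1 (1.33, standard error 0.31, adjusted p = 0.147), the zinc exporter Slc30a1 (0.68) and the zinc importer Slc39a14 (0.61). Mt1 was at -1.34, 0.64, -0.07 and 1.20 in the 54 µg lungs, with no value in replicate 2, and from -1.93 to -0.54 at 18 µg. Replicate 1 again lay among the 18 µg lungs. Mt1 and Mt2 are similar in sequence, and signal shared by their probes was not tested. The metal-responsive transcription factor Mtf1, the sensor behind the promoter elements shown above, differed by -0.02, and brain-type Mt3 by -0.23.

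The acute phase genes had a median difference of 0.33 over 27 expressed members. Of these, 8 passed the unadjusted threshold upwards, against 2.56% of all named genes, and none downwards. The orosomucoids are plasma carrier proteins made by liver and epithelium. Orm2 was at 2.26, 2.94, 1.45, 1.99 and 2.88 at 54 µg against -0.07, 0.38 and 1.44 for the lowest, median and highest 18 µg lung, a difference of 1.73 (standard error 0.35, adjusted p = 0.0928). Orm1 differed by 1.42. For both genes every 54 µg lung was above every 18 µg lung, Orm2 in replicate 3 by a narrow margin, and 4 of the 6 lungs at 18 µg were well above background. The Orm1 and Orm2 probes may share signal, since the genes are near copies, and this was not tested. The fibrinogen gamma chain Fgg (1.44), Serpina3m (1.41), the iron hormone hepcidin (Hamp, 1.38), the haem carrier Hpx (1.08) and the serum amyloids Saa2 (1.27) and Saa1 (1.23) also passed. Without replicate 5 of the 54 µg group the difference was 0.68 for Hamp, 0.41 for Saa2 and 0.62 for Saa1. Saa1 was at 1.74, 2.06, 2.48 and 3.19 in the lungs with a value, against -0.54 to 2.29.

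The acute phase difference did not extend to all members. Serum amyloid A3 (Saa3), which was 4.27 above controls at 18 µg and 5.13 above at 54 µg, had levels of 1.85, 1.74, 0.30, 2.46 and 2.95 against -1.43 to 2.10, and its difference of 0.86 (standard error 0.65) had an adjusted p of 0.701. Lcn2 (-0.03), complement C3 (-0.46) and factor B (Cfb, -0.44) were equal or lower in mean at 54 µg without passing the threshold. List medians within slides were 0.26, -0.23, 1.15 and 0.03, so that the slide with replicate 5 at 54 µg and replicate 6 at 18 µg gave the largest value. Without replicate 5 of the 54 µg group 5 acute phase proteins passed upwards and 1 downwards, and without replicate 3 of that group 12 passed upwards.

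Of the 19 expressed genes of matrix proteases and their inhibitors, 5 passed upwards and none downwards (median 0.21), and 2 without replicate 5 of the 54 µg group or 3 without replicate 1 of that group or replicate 5 of the 18 µg group. Timp3 was at 2.12, 3.26, 3.52, 2.82 and 2.35 at 54 µg, against 1.30, 1.64 and 2.21, and only replicate 1 lay inside the 18 µg range. Timp4 was at 1.12, 1.01, 1.97, 0.84 and 2.01 against -0.08, 0.20 and 1.20, a difference of 1.19 (standard error 0.24, adjusted p = 0.0921), with 2 lungs above all 18 µg lungs. Stromelysin Mmp3 (0.76) and the aggrecanase Adamts4 (0.64) also passed. Timp2 (0.07) and Timp1 (0.55, standard error 0.59) did not pass. Timp1 gave -2.80 on the slide with replicate 3 of the 54 µg group and 3.58 on the slide with replicate 5. Of the 19 collagen, matrix and TGF-beta genes, only the collagen cross-linking enzyme Lox passed (0.74), and Col1a1 (-0.05) and Fn1 (-0.36) did not.

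Genes of dividing cells were lower at 54 µg. Of 23 expressed mitosis and spindle genes, 14 passed the unadjusted threshold downwards and none upwards, against 1.14% of all named genes, with a median of -0.66. With slide effects out, 13 of 23 had no overlap between doses in the lower direction, against 2.57% of probes. Cyclin A2 (Ccna2) was at -3.70, -3.97, -3.60, -3.53 and -3.72 at 54 µg, against -3.39, -2.84 and -1.82 in the lowest, median and highest 18 µg lung. All 54 µg lungs were below all 18 µg lungs, and the difference was -0.98 (standard error 0.21, adjusted p = 0.118 in limma).

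Topoisomerase Top2a (-0.76), with levels of -4.03 to -3.61 against -3.44 to -2.23, was also below every 18 µg lung in all 5 lungs. The survivin gene Birc5 had the largest difference, -1.23, with levels of -3.83, -4.69, -4.94, -4.76 and -4.75 against -4.41, -3.78 and -2.20. The proliferation marker Mki67 (-1.01), the kinetochore motor Cenpe (-0.93) and the cyclin-dependent kinase Cdk1 (-0.79) followed. Nek2 was the only member above 0, at 0.21. Among the DNA replication and S phase genes all 23 expressed members were below 0, with a median of -0.35, and 4 passed downwards. These were the ribonucleotide reductase subunit Rrm2 (-0.95), the methylation reader Uhrf1 (-0.83), the helicase subunit Mcm2 (-0.61) and cyclin E1 (Ccne1, -0.60). Among the S phase genes the count of 4 was 2 without replicate 1 or 3 of the 18 µg group and 8 without replicate 6 of that group, and 0 with median centring or without normalization. In those settings the S phase median was 0.02 and 0.35, which is -0.24 and -0.23 relative to the median of all genes.

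The mitosis and spindle genes were highest in the 18 µg lungs. Their mean level centred on all lungs was -0.07 to 0.76 at 18 µg and -0.42 to 0.00 at 54 µg, with replicate 2 of the 18 µg group inside the 54 µg range. Their median against controls was 0.65, -0.04 and 0.14 at 18, 54 and 162 µg, from comparisons that share the control lungs. Slide medians were -0.99, -0.40, -0.69 and -0.36. The array of replicate 2 of the 18 µg group also had the widest spread of log2 ratios in its group (SD 1.14). Whether the spread of an array is linked to its mitosis and spindle levels, many of them far below the reference, was not tested. With arrays only centred on their median, which moved the median of all genes to 0.25, 2 mitosis and spindle genes passed downwards, and without normalization, where that median was 0.58, none did and 1 passed upwards. Relative to the median of all genes the list stood at -0.60 in both settings. Medians against controls for the S phase genes were 0.66, 0.25 and 0.36 in the same order.

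**Figure D4:**
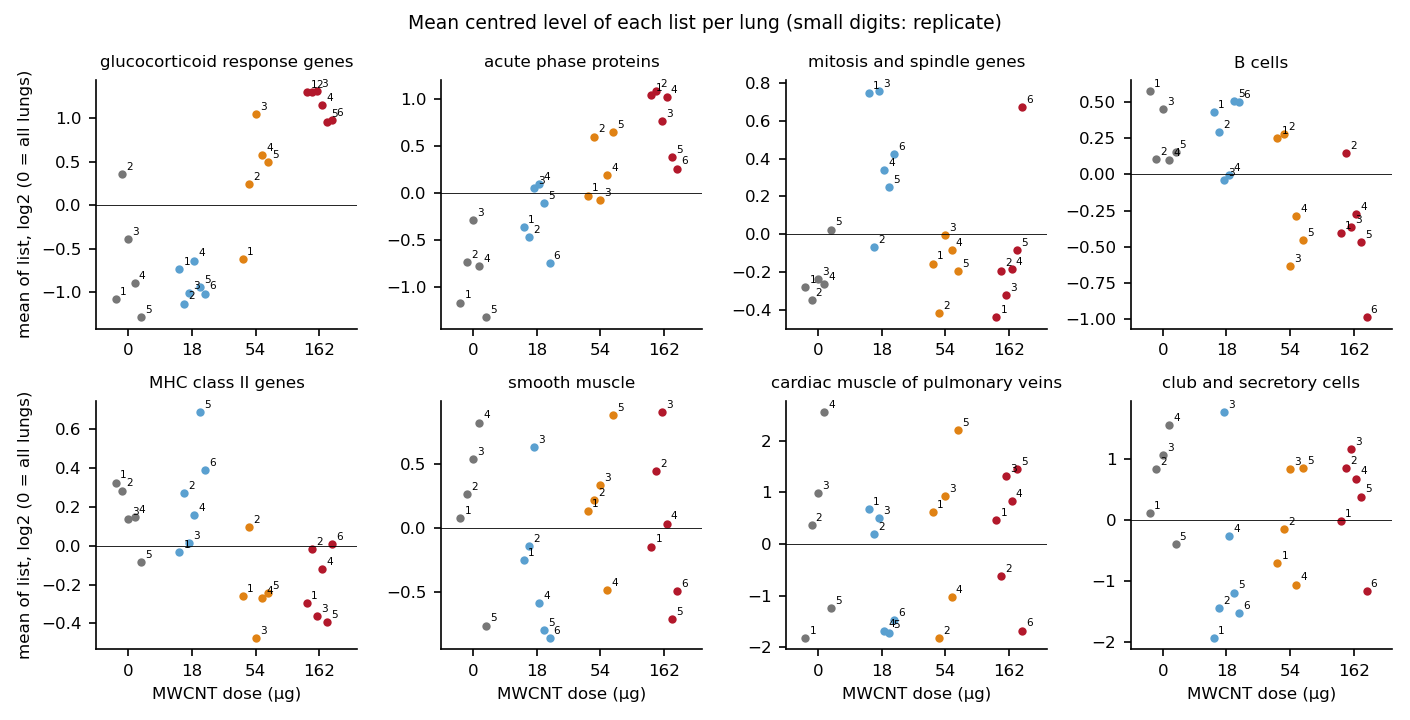
Mean level of each of 8 lists, centred on all lungs, in log2 units (y axis) against MWCNT dose in µg (x axis), 1 point a lung with its replicate number. The glucocorticoid mean of every 54 µg lung, from -0.62 to 1.05, is above the 18 µg lungs, and the cardiac muscle and club cell means spread over more than 2 units within the 18 µg group.

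B cell markers were lower at 54 µg in all 10 expressed members (median -0.54). Of these, 5 passed downwards, against 1.14% of all named genes, and none upwards. The antigen receptor chains Cd79b (-1.13, standard error 0.24, adjusted p = 0.106) and Cd79a (-0.90) and the IgM Fc receptor Fcmr (-0.72) were, like Ms4a1, among those that passed. Cd79b was at 0.73, 0.39, -0.36, 0.43 and 0.03 at 54 µg against 0.30, 1.18 and 2.25, with 2 lungs below all 18 µg lungs. The B cell means of replicates 1 and 2 at 54 µg, 0.25 and 0.28, lay inside the 18 µg range of -0.04 to 0.51, while the other 3 lay below it, from -0.63 to -0.29. Pax5, the B lineage factor, was near 0 (-0.10). Slide medians were -0.16, -0.45, -0.72 and -0.89. The count of 5 was 3 without replicate 5 of the 18 µg group, 2 with arrays only centred on their median and 0 without normalization. Relative to all genes the B cell median was -0.53 in both settings, although the median itself was 0.04 without normalization.

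Antigen presentation genes of MHC class II were lower as well. Of 10 expressed members, 5 passed downwards, against 1.14% of all named genes, and none upwards, with a median of -0.52. The count was 3 without replicate 5 of the 18 µg group and 0 with median centring or without normalization, where their median was -0.43 and -0.44 relative to all genes, and 0.14 in itself without normalization. The invariant chain Cd74 was at 2.79, 3.40, 3.15, 3.35 and 3.16 against 3.29, 3.86 and 4.85, a difference of -0.97 (standard error 0.22, adjusted p = 0.138). H2-DMa, which helps load peptide, was at 1.82, 1.77, 1.08, 1.48 and 1.38 at 54 µg, all below the 18 µg range of 1.89 to 2.55. The chains H2-Aa (-0.93, with no value in replicate 2), H2-Ab1 (-0.73) and H2-Eb1 (-0.63) were the others. Ciita, the master regulator of the class, differed by 0.04. The median against controls was 0.18, -0.53 and -0.37 at 18, 54 and 162 µg. MHC class II genes are expressed by B cells, dendritic cells and macrophages, and the part of each in these values was not tested.

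Other leukocyte lists differed less. Of 14 T and NK cell genes only the T cell kinase Lck passed, downwards (-0.73, with all 5 lungs below every 18 µg lung), and the median was -0.25. The count was 3 without replicate 5 of the 54 µg group and 0 without replicate 5 of the 18 µg group. The medians of dendritic cells (-0.11), alveolar macrophages (0.00), monocytes and recruited macrophages (-0.21) and eosinophils (-0.19) were accompanied by no member past the threshold, or by up to 2 in a direction as single lungs were left out. The neutrophil list had a median of 0.21, and the sole member past the threshold was lactoferrin (Ltf, 2.34), which is also made by airway glands. Without replicate 3 of the 54 µg group 5 neutrophil genes passed upwards. Ltf spread from 1.39 to 7.13 at 18 µg and from 3.50 to 6.47 at 54 µg, so that the groups overlapped fully.

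CC chemokines did not separate the doses with all lungs included. None of the 13 expressed CC chemokines passed in either direction, with a median of 0.03, while their median against controls was 0.98 at 18 µg and 1.22 at 54 µg. Ccl2, which draws monocytes, was at -1.43, -1.18, -2.69, -1.08 and 0.36 at 54 µg, against -3.14, -1.86 and -0.56 in the lowest, median and highest 18 µg lung, a difference of 0.65 (standard error 0.49, adjusted p = 0.697). The eotaxin Ccl24 was at 1.72, 1.40, -2.58, 2.27 and 1.97 against -1.92 to 3.75, a difference of -0.18 with a standard error of 0.96. Replicate 3 at 54 µg was far below the other 4 lungs. Without it, 5 CC chemokines passed upwards, and without replicate 3 or 4 of the 18 µg group or replicate 4 or 5 of the 54 µg group 1 passed downwards.

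These values leave room for sizeable differences in either direction. Differences within slides ran against each other. On the slide with replicate 3 of the 54 µg group Ccl24 gave -6.33, Ccl7 -3.57 and Ccl2 -2.12, and on the slide with replicate 5 of the 54 µg group and replicate 6 of the 18 µg group they gave 3.89, 3.71 and 3.49. The same 54 µg replicate 3 had the highest glucocorticoid mean of its group. Its array had the most outlier spots (3.23%) and the fewest probes above background (58.1%) of that group. Whether these traits of a single lung are linked was not tested. Interleukin 6 (Il6) differed by 0.48 (standard error 0.50). Among the CXC chemokines, the neutrophil attractant Cxcl1 passed upwards (0.87, standard error 0.31, adjusted p = 0.382) and the epithelial chemokine Cxcl15 downwards (-0.59), and Cxcl5 (1.09, standard error 0.59) did not pass.

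**Figure D5:**
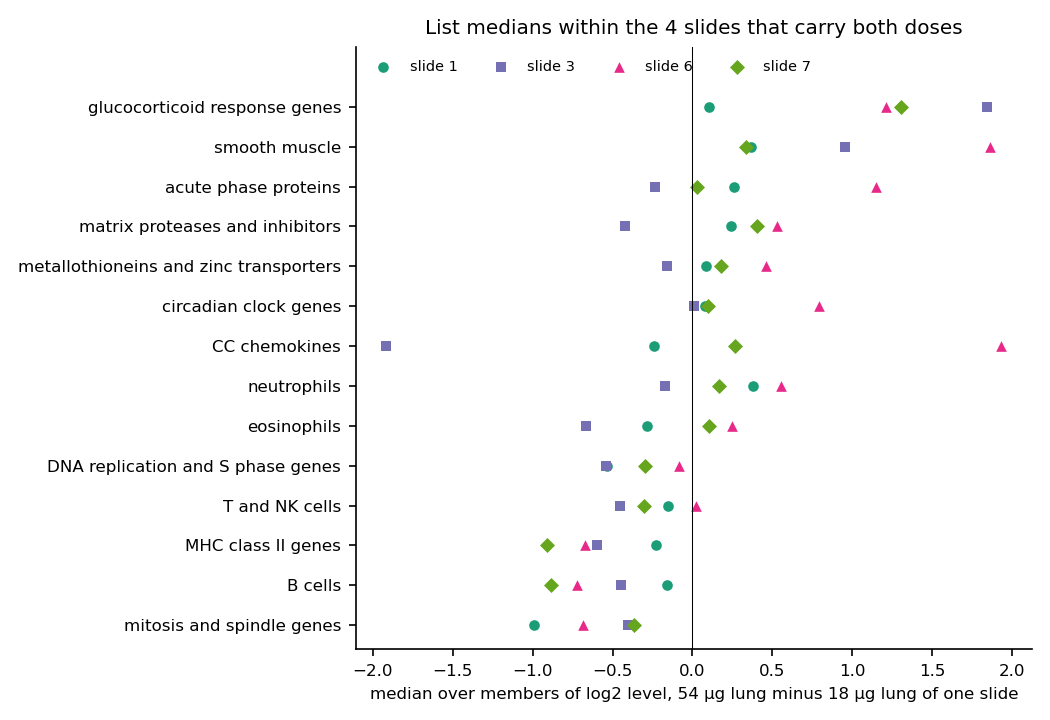
Median over list members of the level of the 54 µg lung minus that of the 18 µg lung on the same slide (x axis, log2) for 14 lists, 1 marker for each of the 4 slides that carry both doses. Mitosis, B cell and MHC class II medians are below 0 and glucocorticoid medians above 0 on every slide, whereas the CC chemokine medians range from -1.91 to 1.93.

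Marker lists of muscle, airway, fat and mesothelium had medians away from 0, with wide spread within groups. All 8 expressed smooth muscle genes were higher at 54 µg, 5 of them past the threshold (median 0.78), among them calponin (Cnn1, 1.24) and the myosin chain Myh11 (0.84). Without replicate 5 of the 54 µg group 1 smooth muscle gene passed. All 12 genes of the cardiac muscle of pulmonary veins were higher (median 1.27), with 2 past the threshold, troponin T (Tnnt2, 2.13) and the calcium channel Ryr2 (0.97). The count of cardiac genes ran from 0 to 7 as each lung was left out. None passed without replicate 4 of the 18 µg group or replicate 5 of the 54 µg group, and 7 passed without replicate 1 or replicate 2 of these groups, respectively. The cardiac mean ranged from -1.72 to 0.68 at 18 µg and from -1.82 to 2.22 at 54 µg. Of 11 club and secretory cell genes 4 passed upwards (median 0.97), led by the antimicrobial lectin Reg3g (3.02, standard error 1.37), which ran from 0.37 to 9.23 at 18 µg and from 1.40 to 8.00 at 54 µg. Leaving out each lung gave 0 to 7 club cell genes, with none without replicate 6 of the 18 µg group. The club cell mean ran from -1.94 to 1.77 and from -1.06 to 0.85.

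Ciliated cell genes had a median of 0.58 over 15, with 4 past upwards, such as the tektin Tekt1 (1.05), and the tubulin-binding Tppp3 downwards (-0.61). Without replicate 5 of the 54 µg group no ciliated gene passed upwards, and without replicate 3 of either dose 7 did. Fat cell genes had a median of 0.93 over 7 with none past the threshold, and a mean from -2.31 to 1.19 at 18 µg and from -1.69 to 1.74 at 54 µg. The mesothelial median was -0.64 over 6, with the mesothelial transcription factor Wt1 past downwards (-1.35), and 0 to 4 mesothelial genes passed as single lungs were left out. The part of airway, muscle, fat and mesothelium in the differences of the other lists was not tested. Parenchymal lists were closer to 0, at -0.19 for alveolar type II cells, -0.01 for alveolar type I cells, -0.15 for endothelial cells and 0.11 for fibroblasts. Surfactant protein A1 (Sftpa1, -0.64) and Cldn5 (-0.61) passed downwards.

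Of 39 genes used here that the study had called at each dose, 6 were past the threshold upwards and none downwards (median 0.26). Leaving out single lungs gave 3 (without replicate 6 of the 18 µg group) to 14 (without replicate 3 of the 54 µg group), with medians from -0.05 to 0.39. The list was chosen on these lungs and is no independent evidence of direction. The 6 were Mt2, Saa1, Cxcl1, Adamts4, Slc39a14 and the TWEAK receptor Tnfrsf12a (0.70). Of 20 NRF2 targets and antioxidant enzymes, 2 passed upwards, against 2.56% of all named genes. They were peroxiredoxin Prdx1 (0.70) and glutathione transferase Gsta2 (0.72). The NRF2 list had a median of 0.18, and haem oxygenase Hmox1 differed by -0.19. The NRF2 count was 1 without replicate 5 of the 18 µg group and 5 without replicate 1 of the 54 µg group. None of 12 p53 targets, 14 ER stress genes, 15 glycolysis and hypoxia genes, 18 ribosome biogenesis genes or 19 interferon-stimulated genes passed, with medians of 0.09, -0.23, 0.01, 0.03 and -0.18. Without replicate 1 of the 54 µg group 4 ER stress genes passed downwards, without replicate 1 of the 18 µg group 2 glycolysis and hypoxia genes passed upwards, and single lungs left out gave up to 1 p53 target and 1 interferon-stimulated gene in a direction.

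Single members of further lists stood apart from their neighbours. Aldh1a3, a retinoic acid synthase, was at 3.46, 5.36, 2.54, 4.76 and 6.67 at 54 µg against 0.48, 2.55 and 3.92, a difference of 1.99 (standard error 0.67, adjusted p = 0.339), while Aldh1a2 was lower (-0.80) and the retinoid list had a median of -0.14. Without replicate 5 of the 54 µg group the Aldh1a3 difference was 1.04. Tissue factor (F3), the starter of coagulation, was at 0.77, 1.52, 1.66, 1.42 and 2.47 against 0.08, 0.66 and 1.05, a difference of 1.13 (standard error 0.24, adjusted p = 0.106), with 4 lungs above the 18 µg range. The transcription factor Klf4 (0.78) and the endothelin receptor Ednrb (0.97) also passed upwards. Over all 49 lists, 17 had no member past the threshold and 34 had a median within 0.25 of 0.

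Single lungs also set the size of further differences given above. Without replicate 5 of the 54 µg group the difference was 1.13 for Tnnt2, 0.60 for Ryr2, 0.61 for Cnn1, 0.55 for Myh11, 1.48 for Reg3g, 0.60 for Tekt1, 0.50 for Cxcl1, 0.57 for Cxcl5, 0.02 for Ccl2, 0.35 for Saa3, 0.48 for Mmp3, 0.31 for Adamts4 and 0.35 for Slc39a14. Without replicate 3 of that group it was 1.36 for Ccl2, 2.03 for Cxcl5, 1.52 for Saa3, 1.05 for Adamts4, 0.39 for Lox, 0.64 for Ednrb, 0.46 for Gsta2, -0.37 for Fcmr, -0.50 for Uhrf1 and -0.40 for Tppp3. Leaving out replicate 4 of the 18 µg group gave 0.26 for Slc30a1 and 0.46 for the brighter Tmtc1 probe, replicate 5 of that group -0.44 for Nr1d1 and replicate 6 -0.59 for Cd79a.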

How the data were processed

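Right lung RNA of 22 mice was measured on 2-colour arrays, 11 of them at the doses compared. What the authors deposited per array are intensity values (Feature Extraction 10.7.3.1, as the headers state), with the median Cy5 and Cy3 pixel signal of each spot neither background subtracted nor normalized. The authors also deposited log2 ratios of lung to reference, whose normalization is not given in the sources used here, and these served as an alternative.

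Outlier spots were left out. Each array's log2 Cy5/Cy3 ratios were loess normalized (span 0.3), and the median over spots of a probe was taken, giving 55681 probes. Names came from RefSeq accessions for 26413 probes and from the study's tables for 177, and 29091 stayed unnamed. A gene took its probe of highest mean intensity, giving 20124 genes. The array number limits the precision. The median standard error of a difference was 0.13.

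With limma 3.58.1 in R 4.3.3, all 22 arrays were modelled by dose group plus slide (7 slides), which left 12 residual degrees of freedom, with Benjamini-Hochberg adjustment over all probes. Called probes had an adjusted p no higher than 0.05 and a 1.5-fold or larger change, if their Cy5 signal exceeded the trimmed mean plus 3 trimmed SD of 308 negative control spots (5% trimmed) on 80% of the arrays of either dose. Lists, 30 of genes and 19 of cell types, were described by members past an unadjusted p of 0.05 and 1.5-fold, by medians and by the range over lungs. Genes were named if a probe was called, if among the 12 smallest p in a direction, if a list member past the unadjusted threshold, or from a fixed set. Members and lists were chosen with earlier results of these data known. Simulated data for this comparison (32577 probes) had independent normal noise and were adjusted over these probes alone. In them limma called 93% of 100 probes changed 2-fold, 100% of 100 changed 4-fold and 5 unchanged probes. The lungs hold outliers and were adjusted over all probes, so these shares do not estimate the share found in the lungs. Alternatives covered background correction, normalization, slide and replicate terms, filters, thresholds, the Fs test with 100 shuffles of the residuals, and each lung left out. Scripts for promoters and figures used Python. Some genes are not reported here.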

Additional observations from a re-analysis of the deposited data

Results flagged for a closer look

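In 14 of 370 groups of values tested, a single lung stood apart from the others of its dose by Dixon's test, which chance alone flags in about 1 of 20 groups. The value given is the gap to the nearest lung divided by the range of the group.

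At 18 µg, replicate 3 was the highest lung for the glutathione transferase Gsto1 (0.872, level 4.14 against -0.01 in the next lung) and for Reg3g (0.643, level 9.23 against 3.53), and it is a lung with Ucp1. Cdk1 was lowest in replicate 2 (0.636, level -3.97 against -3.07). The mean of EGF receptor ligands was highest in replicate 4 (0.707), that of heat shock and chaperone genes lowest in replicate 6 (0.706), and that of alveolar type I cells lowest in replicate 1 (0.692).

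At 54 µg, replicate 1 was highest for Birc5 (0.779, level -3.83 against -4.69) and Trim59 (0.722, level -3.40 against -3.69), and lowest for Cldn5 (0.746, level 5.40 against 6.57) and H2-Ab1 (0.726, level 3.14 against 4.19). Replicate 3 was lowest for Ccl24 (0.82, level -2.58 against 1.40), Hmox1 (0.839, level -1.74 against -0.83) and Wt1 (0.737, level -2.96 against -1.77). The checkpoint kinase Bub1 was lowest in replicate 2 (0.774, level -4.36 against -3.70). No explanation of these lungs was tested.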

How the results depend on the processing

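The count of 8 called probes ranged from 0 to 87 when each lung was left out in turn, that of 933 probes past the unadjusted threshold from 699 to 1301, and that of 1504 probes without overlap from 1455 to 2891. Other settings gave the following counts of called probes, and the cause was not tested. These were 0 with median centring, without normalization, without a slide term and in the 11 arrays alone with or without slide, 3 with the deposited log2 ratios, 16 with array weights, 38 with the Cy5 channel alone, 45 with adjustment over expressed probes alone (fewer probes adjusted for), 57 with the Fs test and 18 without the 2 lungs with Ucp1, an alternative chosen after seeing the data. It lay between 6 and 9 in the other settings, apart from the replicate block given below. The 7 called genes held their direction in 38 settings. Aquantile scaling after loess, adjustment over expressed probes alone and the Fs test left the differences unchanged, so direction was fixed there. The call was lost in many settings, for Gm28856 in 26, Mt2 in 24, Trim59 in 19, Rgcc in 17, Ccn2 and Pou2af1 in 13 each and Pip5k1a in 11.

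Past the unadjusted threshold, median centring gave 1710 probes (1674 higher, 36 lower), no normalization 7925 (7922 higher, 3 lower), array weights 604, no fold threshold 4665 and at least 2-fold 167. The Cy5 channel alone gave 557 higher and 519 lower. Without overlap, no normalization gave 5154 probes, and median centring 1517 higher and 254 lower. Median centring put the median of all genes at 0.25 and no normalization at 0.58, against 0.01 with loess.

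Same-numbered lungs of the doses share the number, and those numbered 1 also share a slide. Correlations of their deviations from the group means were 0.41, 0.42, -0.01, 0.11 and -0.16, with the own number best in 2 of 5. With slide effects taken out the correlations were -0.46, 0.02, -0.04, 0.21 and -0.12. The replicate block beside slide gave 0 called probes and 550 past the unadjusted threshold (221 higher, 329 lower), and the replicate block in place of slide 1 called probe. With the block beside slide, 4 glucocorticoid, 12 mitosis, 2 MHC class II and 3 B cell genes passed. Without the lungs with Ucp1 these counts were 11, 12, 5 and 5. Of 5168 values for 136 named genes, 4845 kept their direction and side of the threshold, 123 lost the call, 122 gained it and 78 changed sign, in 25 genes. Most of these genes were not called in the main fit, and for them keeping the side meant staying uncalled. Only the called genes could lose a call. The 4845 also include the settings that left the differences unchanged, so this number does not measure the stability of the calls.

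Without normalization the sign changed for Map4k1 (0.0092), Phf11a (0.023), Tmem229b (0.044), Cldn5 (0.047), Crip1 (0.049), Sftpa1 (0.059), Mcm2 (0.080), Ccne1 (0.085), H2-Ab1 (0.091), Ccnb2 (0.10), Cxcl15 (0.10), Tppp3 (0.13), Cdc20 (0.15), Dnaja1 (0.18), H2-Eb1 (0.19), Asgr1 (0.24), Ccl24 (0.46), Hmox1 (0.53), Lcn2 (0.54) and Slc26a4 (0.55). With median centring it changed for Ccl24 (0.13), Hmox1 (0.20), Lcn2 (0.21) and Slc26a4 (0.23), and with array weights for Slc26a4 (0.14), Lcn2 (0.18), Hmox1 (0.23) and Ccl24 (0.62). Other changes of sign were Lcn2 with Cy5 alone (0.76) and with a random slide block (0.033), Ccl17 with the deposited ratios (-0.011), Slc26a4 (0.022) and Lcn2 (0.10) without slide and in the 11 arrays without slide, and Slc26a4 (0.20) in the 11 arrays with slide. With the replicate block beside slide they were Timp1 (-0.086), Ccl17 (-0.21) and Il6 (-0.30), in place of slide Ccl17 (-0.065) and Lcn2 (0.089), and without the lungs with Ucp1 Ccl24 (0.0082), Lcn2 (0.035) and Slc26a4 (0.13). Leaving out a lung changed the sign for Lcn2 (-0.25 to 0.15), Ccl7 (-0.25 to 1.47), Ccl11 (-0.10 to 1.55), Ccl24 (-1.04 to 1.40), Ccl17 (-0.40 to 0.31), Il6 (-0.16 to 1.16), Timp1 (-0.057 to 1.33), Hmox1 (-0.39 to 0.20) and Slc26a4 (-1.01 to 0.70), none of which was called.

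The slide and the scan date coincide, so the planned scan date alternative was not run. Signal limits small differences, with a median Cy5 signal of 1.24 to 2.11 times local background at 18 µg and 1.37 to 2.07 times at 54 µg.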
